A study of Homo sapiens with 8 samples.

Results

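The MAF family was described on every probe set that the platform annotation pairs with the single gene symbol MAF, MAFF, MAFG or MAFK. This gave 10 of the 54675 probe sets of the Affymetrix arrays, of which 6 measure MAF, 2 MAFF and 2 MAFG, so 3 genes of 19775 are covered. No probe set is paired with MAFK alone in the annotation used here, and MAFK was not analysed here. The family was chosen by the measured knockdown differences of MAF, which rose in both cell lines, so the knockdown differences of MAF are given as a description with no test. MAFF and MAFG were taken by family membership, and their values were not used in the choice.

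The study asked how hepatoma cells respond to loss of KLHL23, a Kelch-like protein, and its title places that protein in epithelial-mesenchymal transition. The 8 arrays form 4 groups of 2, numbered replicates 1 and 3 in the labels: Hep-3B-shKLHL23, Hep-3B-shLuc, Huh7-shKLHL23 and Huh7-shLuc. Hep-3B and Huh7 are established lines grown from human liver cancers. All 4 groups grew in medium with 10% serum, received lentivirus at a multiplicity of infection of 2 and were selected with puromycin, which began after 48 hours. It delivered a short hairpin RNA (shRNA) against KLHL23 (shKLHL23) or against luciferase (shLuc), which human cells lack. A single KLHL23 hairpin name appears in the labels, and loss of KLHL23 and action of that hairpin on other transcripts cannot be told apart. Whether replicates were grown as separate cultures is not given, and p-values therefore cover the spread between these arrays, possibly technical.

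MAF proteins are basic leucine zipper transcription factors that bind DNA as dimers. The large members, such as MAF (c-MAF), carry a transactivation domain; MAF is known from lens development, T lymphocytes, macrophages, liver sinusoidal endothelium and multiple myeloma. The small members MAFF, MAFG and MAFK lack that domain. They pair with each other, or with the cap'n'collar (CNC) factors such as NRF2 (gene NFE2L2) and the BACH repressors, at antioxidant response elements and MAF recognition elements. In liver cells these dimers control antioxidant, detoxification and proteasome genes.

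The genes lie at chr16:79202622-79600737 (MAF), chr22:38201994-38216511 (MAFF) and chr17:81918270-81931244 (MAFG) in the RefSeq annotation of assembly GRCh38.p14. The 250 bases before the start sites are shown for these genes, since MAFF and MAFG were lower in the knockdown arrays in which MAF was higher. They come from the RefSeq promoter table, which matched all 3 genes and holds 2 start sites for MAFF, of which the outer one is shown. The MAFG window lies inside the gene span given above, so it does not describe the outer end of that span. Capitals mark matches, on either strand, to the cAMP response element (TGACGTCA), the AP-1 site (TGANTCA), the core of the antioxidant response element (TGACNNNGC), the shorter MAF element (TGCTGAC) or an E-box (CACGTG).
MAF, chr16:79600738-79600987, minus strand: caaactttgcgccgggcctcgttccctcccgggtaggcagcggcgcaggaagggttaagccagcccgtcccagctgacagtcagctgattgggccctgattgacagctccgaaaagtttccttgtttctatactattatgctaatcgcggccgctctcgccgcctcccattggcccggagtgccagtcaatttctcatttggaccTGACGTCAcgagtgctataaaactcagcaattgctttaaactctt
MAFF, chr22:38201744-38201993, plus strand: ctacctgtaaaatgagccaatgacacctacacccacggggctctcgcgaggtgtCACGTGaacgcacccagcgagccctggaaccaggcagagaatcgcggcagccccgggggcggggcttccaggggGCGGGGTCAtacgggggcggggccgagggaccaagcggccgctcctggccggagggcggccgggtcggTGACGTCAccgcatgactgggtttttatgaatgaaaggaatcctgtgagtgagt
MAFG, chr17:81927736-81927985, minus strand: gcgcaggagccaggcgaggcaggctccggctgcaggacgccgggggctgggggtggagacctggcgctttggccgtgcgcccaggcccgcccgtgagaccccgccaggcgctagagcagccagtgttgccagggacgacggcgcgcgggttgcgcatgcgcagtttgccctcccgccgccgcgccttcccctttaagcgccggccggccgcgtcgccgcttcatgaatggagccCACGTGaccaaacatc

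The MAF and MAFF windows each hold 1 cAMP response element, whose last base lies 38 and 47 bases before the start site. Of 35116 promoter windows of this length 1.65% hold that match. The MAFF window also holds 1 E-box, as does the MAFG window, and 1 antioxidant response element core. The other MAFF start site, with the window chr22:38202770-38203019, holds 1 E-box. E-boxes occur in 6.34% of windows and the antioxidant response element core in 10.9%. AP-1 sites (6.57% of windows) and the shorter MAF element (3.43%) had no match in these windows, and no matches overlapped.

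The deposited values are log2 expression levels after robust multi-array average (RMA), which gives every array the same distribution of intensities, so a change in total RNA per cell is not visible. Array medians lay between 4.56 and 4.5972 and lower quartiles between 3.08 and 3.12. Replicates correlated at 0.994 to 0.997, and over probe sets the replicate difference had an SD of 0.223 and 0.263 in the shKLHL23 groups of Hep-3B and Huh7, against 0.172 and 0.186 in their shLuc groups. All 12 measured hepatocyte markers, among them ALB and AFP, lay above the upper quartile on every array. One of them, TTR, a plasma carrier protein, rose by 1.58 in Hep-3B (limma adjusted p = 0.0104) and 1.23 in Huh7 (limma adjusted p = 0.0061). The Hep-3B call was lost without replicate 3 of shKLHL23 or either shLuc array, and the Huh7 call without shLuc replicate 1. The other 11 hepatocyte markers were not called in either line. Higher calls made up 0.733% of all genes in Hep-3B and 4.46% in Huh7, and lower calls 0.238% and 6.2%. KLHL23 was at 7.21 and 6.15 in Hep-3B-shKLHL23 (replicates 1 and 3), against 7.81 and 7.84 in Hep-3B-shLuc. In Huh7-shKLHL23 it was at 5.78 and 5.88, against 7.89 and 7.87 in Huh7-shLuc. The knockdown was thus uneven in Hep-3B, with 65.5% and 31.4% of the control mean left, and even in Huh7, with 23.4% and 25% left. Its difference of -1.14 in Hep-3B did not pass (SE 0.27, limma adjusted p = 0.0764), and that of -2.05 in Huh7 did (SE 0.27, limma adjusted p = 0.0039).

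On 3 of its 6 probe sets, MAF was higher in both knockdown arrays than in both control arrays of each line. On the brightest probe set, 209348_s_at, MAF was at 6.76 and 7.34 in Hep-3B-shKLHL23, against 4.91 and 5.03 in Hep-3B-shLuc. In Huh7 the same probe set read 7.64 and 6.91 with shKLHL23, against 5.47 and 5.51 with shLuc. The groups did not overlap in either line, and the gap between the nearest arrays was 1.73 in Hep-3B and 1.41 in Huh7. The log2 differences were 2.08 (SE 0.24) and 1.79 (SE 0.24), which correspond to 4.23-fold and 3.45-fold higher levels (n = 2 per group). Over all 54613 probe sets other than controls, these differences ranked 5th from the top in Hep-3B and 19th in Huh7. Since MAF was chosen for this rise, these ranks describe the choice. The mean over both lines was 1.93.

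The 2 other probe sets of MAF that responded gave smaller differences. On 206363_at MAF was at 4.50 and 4.73 in Hep-3B-shKLHL23, against 3.88 and 4.02 in Hep-3B-shLuc, a difference of 0.67 (SE 0.16). In Huh7 it was at 6.0 and 5.53 with shKLHL23, against 4.95 and 4.92 with shLuc, a difference of 0.83 (SE 0.16). Neither line showed any overlap between the groups. On 229327_s_at MAF was at 3.20 and 3.70 in Hep-3B-shKLHL23, against 2.46 and 2.67 in Hep-3B-shLuc, a difference of 0.89 (SE 0.20). In Huh7 it was at 3.79 and 3.23 with shKLHL23, against 2.65 and 2.72 with shLuc, a difference of 0.83 (SE 0.20). All 4 control arrays of that probe set lay below the lower quartile of their array, so its difference is from near the floor of the assay. RMA shrinks the changes of dim probe sets, and the files hold no detection calls.

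The remaining 3 probe sets of MAF were dim and did not respond alike. 209347_s_at lay below the lower quartile on 7 of 8 arrays. It read 2.70 and 2.46 in Hep-3B-shKLHL23, against 2.77 and 2.81 in Hep-3B-shLuc. In Huh7 it read 3.51 and 2.72 with shKLHL23, against 2.69 and 2.76 with shLuc, so replicate 1 alone stood out. 1566324_a_at and 1566323_at lay below the lower quartile on all 8 arrays, between 2.14 and 2.48 and between 1.99 and 2.19. Their differences were -0.12 and -0.06 in Hep-3B, and 0.18 and -0.06 in Huh7. The count of 3 of 6 probe sets with higher knockdown arrays in both lines stands beside 9.62% of all probe sets with that pattern, and nothing is read from it because the rule used these contrasts. The probe sets of MAF measure 1 gene on the same arrays and are not replicates.

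**Figure D1:**
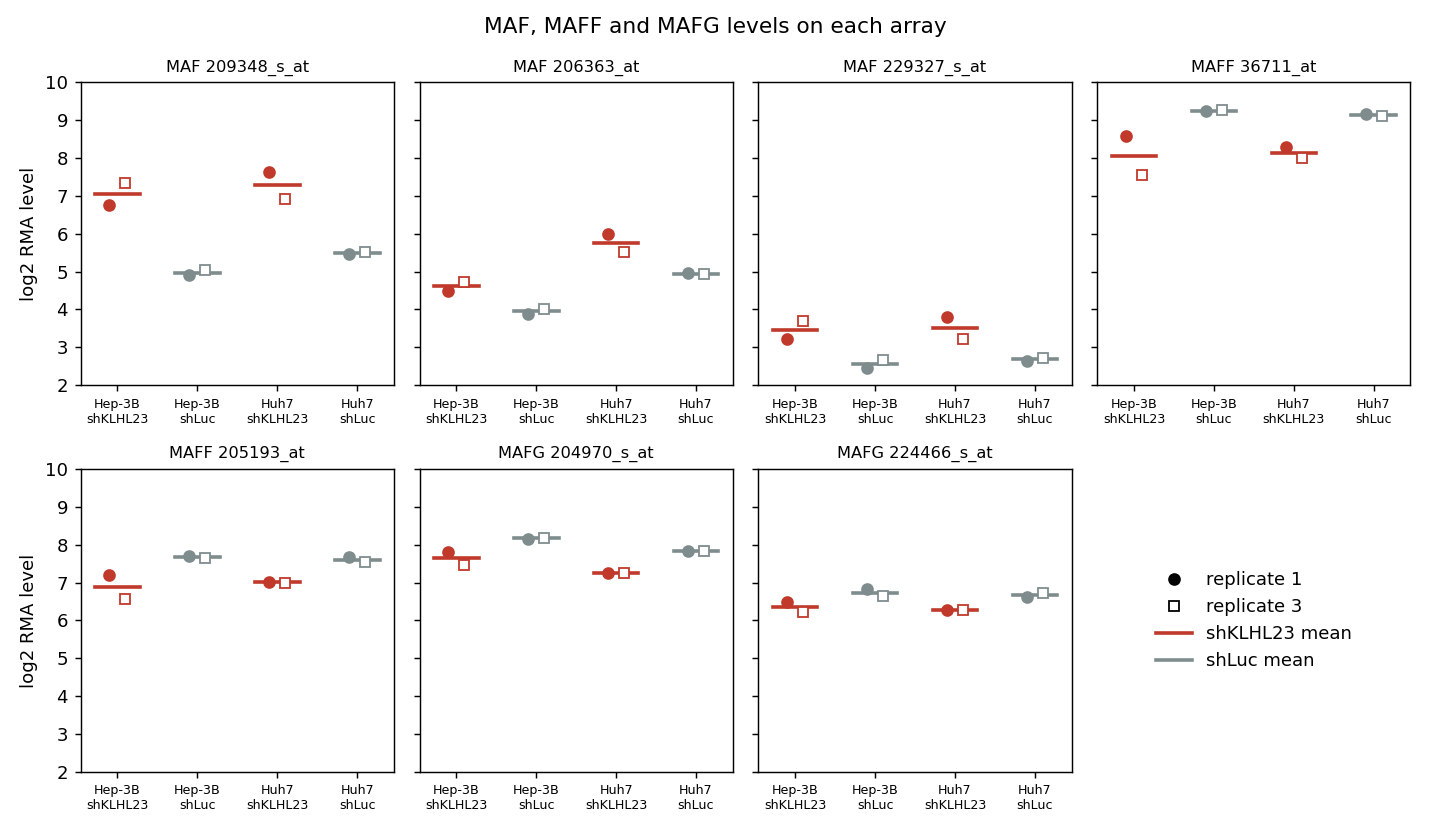
Log2 RMA level (y axis) on each array for the 3 probe sets of MAF with higher knockdown arrays and the 4 probe sets of MAFF and MAFG; circles are replicate 1, open squares replicate 3 and bars group means (n = 2). MAF sat higher and MAFF and MAFG sat lower in shKLHL23 arrays than in shLuc arrays of the same line on every panel; levels of different probe sets are not comparable with each other.

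The knockdown arrays of MAF differed between replicates, and in each line MAF was higher in the array with less KLHL23. In Hep-3B, MAF on 209348_s_at reached 346% of the control mean in replicate 1 and 517% in replicate 3, where KLHL23 was at 65.5% and 31.4%. In Huh7, MAF reached 443% in replicate 1 and 268% in replicate 3, where KLHL23 was at 23.4% and 25%, values that lie close together. Across the lines the order did not hold. Hep-3B replicate 1, with 65.5% of KLHL23 left, had more MAF (346%) than Huh7 replicate 3 (268%), with 25% left. With 4 knockdown arrays this is a description and no relation was tested. Without Huh7-shKLHL23 replicate 1 the Huh7 difference of MAF was 1.42, and without replicate 3 it was 2.15; in Hep-3B the corresponding values were 2.37 and 1.79.

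The level of MAF on 209348_s_at was highest in Huh7-shKLHL23 (7.28 ± 0.51, SD, n = 2), followed by Hep-3B-shKLHL23 (7.05 ± 0.41), Huh7-shLuc (5.49 ± 0.03) and Hep-3B-shLuc (4.97 ± 0.08). The 2 knockdown groups overlapped. Between the control groups, which the choice of MAF did not contrast, the difference of Huh7 minus Hep-3B was 0.52 (SE 0.24) and did not pass (limma adjusted p = 0.157). On 206363_at the same difference was 0.99 (SE 0.16), with 4.95 and 4.92 in Huh7-shLuc against 3.88 and 4.02 in Hep-3B-shLuc, and it passed (limma adjusted p = 0.00137). A difference at an adjusted p under 0.05 was called for 25.8% of all probe sets in that comparison. The other 4 probe sets of MAF differed by -0.08 to 0.12 between the control lines, and none passed.

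MAFF, a small MAF protein whose gene responds to growth and stress signals, was lower in all 4 knockdown arrays on both of its probe sets. On 36711_at MAFF was at 8.57 and 7.56 in Hep-3B-shKLHL23, against 9.25 and 9.26 in Hep-3B-shLuc. In Huh7 it was at 8.30 and 7.99 with shKLHL23, against 9.17 and 9.11 with shLuc. The groups did not overlap in either line. The log2 difference was -1.19 in Hep-3B (SE 0.26, limma adjusted p = 0.0683) and -0.99 in Huh7 (SE 0.26, limma adjusted p = 0.0513), so neither line passed alone. The dimmer probe set 205193_at read 7.20 and 6.57 in Hep-3B-shKLHL23, against 7.69 and 7.66 in Hep-3B-shLuc. In Huh7 it read 7.02 and 7.0 with shKLHL23, against 7.67 and 7.53 with shLuc. Its differences were -0.79 in Hep-3B (SE 0.18, limma adjusted p = 0.0686) and -0.59 in Huh7 (SE 0.18, limma adjusted p = 0.075).

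The Hep-3B difference of MAFF rested in part on replicate 3, the array with less KLHL23. On 36711_at MAFF was at 62.3% of the control mean in replicate 1 and 30.8% in replicate 3. Without Hep-3B-shKLHL23 replicate 3 the difference was -0.68, and without replicate 1 it was -1.70. On 205193_at the corresponding values were -0.48 and -1.10. Each leaves a lone knockdown array, whose spread could only be assumed from the other groups, and no p is read from them. In Huh7 the 2 knockdown arrays were closer, at 56% of the control mean in replicate 1 and 45.2% in replicate 3. There KLHL23 was at 23.4% and 25%, so the order of MAFF was the opposite of that in Hep-3B.

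MAFG, the small MAF protein that commonly pairs with NRF2, was also lower in all 4 knockdown arrays on both probe sets. On 204970_s_at MAFG was at 7.81 and 7.47 in Hep-3B-shKLHL23, against 8.16 and 8.18 in Hep-3B-shLuc. The difference of -0.53 did not pass (SE 0.12, limma adjusted p = 0.0727). In Huh7 it was at 7.26 and 7.25 with shKLHL23, against 7.84 and 7.85 with shLuc. There MAFG fell by 0.59 on the log2 scale (SE 0.12, limma adjusted p = 0.0207), to 66.6% of control. That call was lost without Huh7-shKLHL23 replicate 1 (limma adjusted p = 0.0693) and without either Huh7-shLuc array (limma adjusted p = 0.114 and 0.121), while the difference stayed between -0.59 and -0.58 in these fits.

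On 224466_s_at MAFG was at 6.48 and 6.22 in Hep-3B-shKLHL23, against 6.83 and 6.64 in Hep-3B-shLuc. In Huh7 the probe set read 6.27 and 6.29 with shKLHL23, against 6.61 and 6.74 with shLuc. The differences of -0.38 (SE 0.12, limma adjusted p = 0.171) and -0.40 (SE 0.12, limma adjusted p = 0.0858) did not pass.

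Of the 4 probe sets of MAFF and MAFG, 0 were called in Hep-3B and 1 in Huh7 by limma, although all 4 had an unadjusted p of 0.0127 or less in each line. Calls made up 1.15% of all probe sets in Hep-3B and 8.5% in Huh7, and lower calls 0.65% and 4.67%. Both knockdown arrays lay above both control arrays for 25.2% of probe sets in Hep-3B and 25.5% in Huh7, and below them for 24.6% and 23.7%. The pattern of lower knockdown arrays with no overlap in both lines held for these 4 probe sets and for 9.74% of all probe sets. In the mean of the differences of both lines, a contrast added after the data had been seen, all 4 probe sets fell. MAFF fell by 1.09 on 36711_at (SE 0.19, limma adjusted p = 0.0094) and by 0.69 on 205193_at (SE 0.12, limma adjusted p = 0.011). MAFG fell by 0.56 on 204970_s_at (SE 0.09, limma adjusted p = 0.0065) and by 0.39 on 224466_s_at (SE 0.09, limma adjusted p = 0.024). Each was lower in 4 of 4 knockdown arrays, and of all probe sets 10.1% were called in that contrast and 5.6% were called lower. The calls of 36711_at and 204970_s_at held under each of 15 alternative settings. That of 205193_at was lost without Huh7-shLuc replicate 1 (limma adjusted p = 0.0523), and that of 224466_s_at was lost in 6 of the 8 fits without 1 array (limma adjusted p of up to 0.102).

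The knockdown differences of MAFF and MAFG were not shown to differ between the lines. Subtracting the Hep-3B difference from the Huh7 one gave 0.20 on both MAFF probe sets (SE 0.37 and 0.25, limma adjusted p = 0.876 and 0.796). It was -0.05 and -0.02 for MAFG (SE 0.17 each, limma adjusted p = 0.93 and 0.982). These SEs leave room for differences of the size of the knockdown difference itself for MAFF. In that comparison 0.934% of all probe sets were called. For MAF on 209348_s_at the value was -0.30 (SE 0.34). It was 0.07 without Huh7-shKLHL23 replicate 3, -0.66 without Huh7-shKLHL23 replicate 1 and -0.0041 without Hep-3B-shKLHL23 replicate 3. Between the control lines MAFF differed by -0.12 and -0.08, and MAFG by -0.33 (limma adjusted p = 0.0802) and -0.06, none of which passed.

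**Figure D2:**
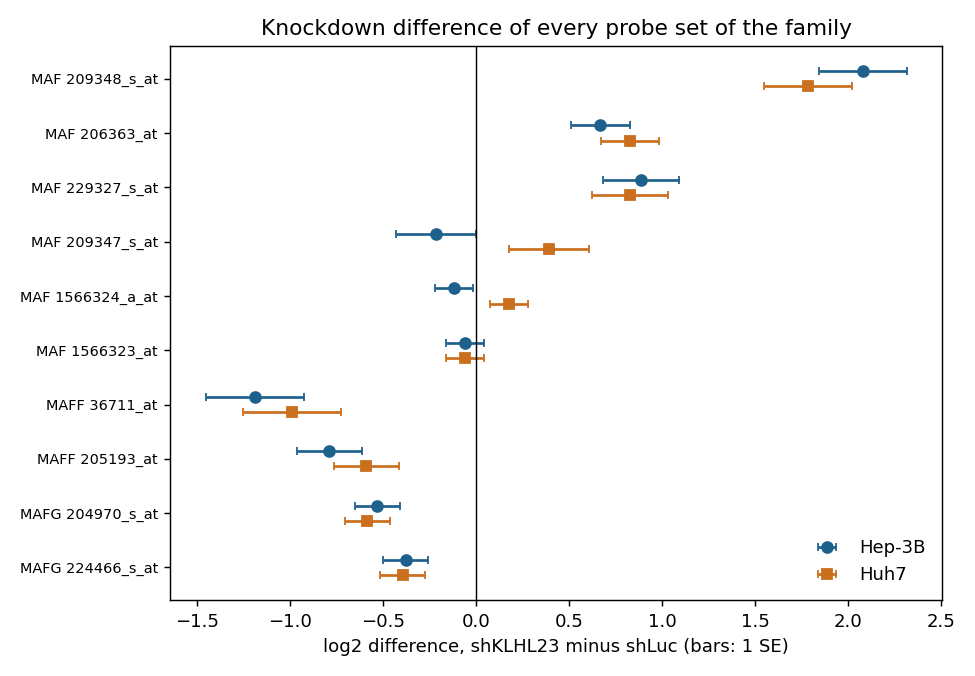
Log2 difference of shKLHL23 minus shLuc (x axis) for all 10 probe sets of the family, with circles for Hep-3B, squares for Huh7 and bars of 1 SE from the limma fit (n = 2 per group). MAF 209348_s_at stood at 2.08 and 1.79, the 4 probe sets of MAFF and MAFG lay between -1.19 and -0.38, and the 3 dim probe sets of MAF lay between -0.22 and 0.39.

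**Figure D3:**
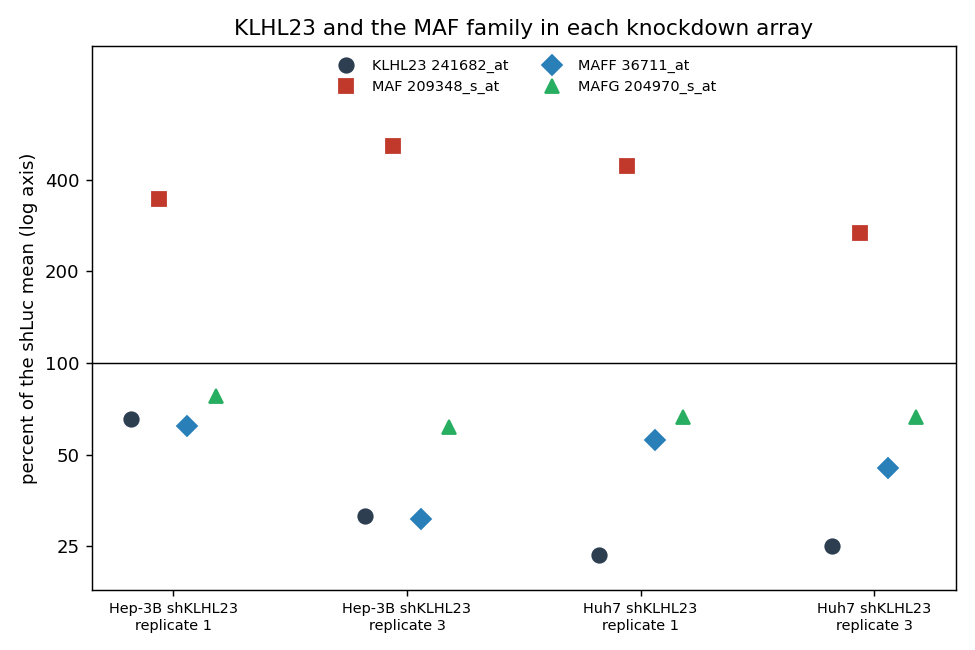
Level of KLHL23, MAF, MAFF and MAFG in each knockdown array as a percent of the shLuc mean of its line (log axis; the line marks 100%). In Hep-3B replicate 3, which had less KLHL23 than replicate 1, MAF was higher (517% against 346%) and MAFF lower (30.8% against 62.3%). In Huh7 replicate 1, which had slightly less KLHL23 than replicate 3 (23.4% against 25%), MAF was higher (443% against 268%). MAFF was higher there too (56% against 45.2%), unlike in Hep-3B.

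Markers of other cell types in which MAF is known, and signs of RNA quality, were read beside these results. Among all genes 0.733% were called higher and 0.238% lower in Hep-3B, and 4.46% and 6.2% in Huh7. Of 12 T lymphocyte markers and 11 macrophage markers measured, 0 were called in either line by limma (2 and 2 at an unadjusted p under 0.05 in Hep-3B, 0 and 1 in Huh7). The T lymphocyte markers furthest from 0 were CD2 (0.37) and IL2RA (0.28) in Hep-3B, and CD3D (0.32) and CD8A (-0.22) in Huh7. Those of the macrophage list were CD14 (0.49) and FCER1G (0.37) in Hep-3B, and FCER1G (0.44) and CSF1R (-0.18) in Huh7. The summed linear level of the T lymphocyte list was 534 to 547 in Hep-3B-shKLHL23, against 507 to 531 in Hep-3B-shLuc, and 244 to 280 in Huh7-shKLHL23, against 257 to 276 in Huh7-shLuc. PTPRC, which marks leukocytes, was the 1 marker of that list below the lower quartile on all 8 arrays. Above the upper quartile on all 8 arrays lay 0 of that list. In the macrophage list 0 markers lay below the lower or above the upper quartile on all 8. The macrophage list summed to 576 to 687 in Hep-3B-shKLHL23, against 544 to 563 in Hep-3B-shLuc. In Huh7 that list gave 252 to 275 with shKLHL23, against 260 to 271 with shLuc.

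Of 13 markers of liver sinusoidal endothelium, LYVE1, a hyaluronan receptor, rose in Hep-3B by 1.30 (limma adjusted p = 0.0209), and 0 were called in Huh7 (3 at an unadjusted p under 0.05, CLEC4G at 0.46 and PECAM1 at 0.44 furthest from 0). The LYVE1 call was lost without Hep-3B-shKLHL23 replicate 3 or either Hep-3B-shLuc array. The list summed to 587 to 680 in Hep-3B-shKLHL23, against 538 to 548 in Hep-3B-shLuc, and to 403 to 427 in Huh7-shKLHL23, against 359 to 365 in Huh7-shLuc. CDH5 and KDR lay below the lower quartile on all 8 arrays. They were 2 of the 13 markers, and 1 other marker lay above the upper quartile on all 8. Of 12 stellate cell and fibroblast markers 0 were called in Hep-3B (1 at an unadjusted p under 0.05, TAGLN at -1.15 and ACTA2 at 0.20 furthest from 0), and TAGLN, an actin-binding protein, rose in Huh7 by 1.81 (limma adjusted p = 0.004). The difference of TAGLN between the lines passed (2.96, limma adjusted p = 0.0127). Higher calls made up 0.733% of all genes in Hep-3B and 4.46% in Huh7. That list summed to 1103 to 1254 in Hep-3B-shKLHL23, against 1379 to 1454 in Hep-3B-shLuc, and to 919 to 1059 in Huh7-shKLHL23, against 505 to 543 in Huh7-shLuc. LUM and LRAT, 2 of the 12 markers, lay below the lower quartile on all 8 arrays, and 1 other marker lay above the upper quartile on all 8. The part of these markers in the MAF result was not tested. Each sample is a bulk culture of a single cell line, so fewer cells that express a gene and less of its RNA per cell cannot be told apart.

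RNA integrity was read from ACTB as the 3' minus the 5' control probe set, which gave 0.737 and 0.753 in Hep-3B-shKLHL23, against 0.442 and 0.537 in Hep-3B-shLuc. In Huh7 it was 0.525 and 0.546 with shKLHL23, against 0.873 and 0.833 with shLuc. The same value for GAPDH was 0.223 and 0.236 in Hep-3B-shKLHL23, against 0.117 and 0.120 in Hep-3B-shLuc, and 0.148 and 0.112 in Huh7-shKLHL23, against 0.132 and 0.0887 in Huh7-shLuc. The ACTB value was higher in the knockdown arrays of Hep-3B and lower in those of Huh7. The GAPDH value was higher in the knockdown arrays of Hep-3B, and the groups overlapped in Huh7. The part of RNA quality in the results on MAF, MAFF and MAFG was not tested.

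The dimer partners of the small MAF proteins showed few calls. Their list of 7 CNC and BACH genes also holds KEAP1, which is not a dimer partner, and counts and medians include it. In Hep-3B 0 of the 7 listed genes were called by limma (2 at an unadjusted p under 0.05). Their median difference there was -0.21 against 0.02 over all genes. In Huh7, 1 of 7 fell and 0 rose, with a median of -0.22 against 0.00 over all genes. Among all genes, by their brightest probe set, 0.733% were called higher and 0.238% lower in Hep-3B, and 4.46% and 6.2% in Huh7. NFE2L3, which encodes the CNC factor NRF3, fell in Huh7, at 7.56 and 7.47 with shKLHL23 against 8.20 and 8.13 with shLuc. Its difference was -0.65 (SE 0.13, limma adjusted p = 0.0185), and -0.24 in Hep-3B (limma adjusted p = 0.433).

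NFE2L2, which encodes NRF2, differed by -0.37 in Hep-3B (limma adjusted p = 0.151) and -0.39 in Huh7 (limma adjusted p = 0.0712). Its arrays read 11.58 and 11.31 in Hep-3B-shKLHL23 against 11.80 and 11.84 in Hep-3B-shLuc, and 11.05 and 10.98 in Huh7-shKLHL23 against 11.44 and 11.37 in Huh7-shLuc. BACH1, the heme-regulated repressor that competes with NRF2 for small MAF partners, differed by -0.47 in Hep-3B (limma adjusted p = 0.149) and -0.48 in Huh7 (limma adjusted p = 0.078). KEAP1, the adaptor that targets NRF2 for degradation, differed by 0.14 in Hep-3B (limma adjusted p = 0.622) and 0.41 in Huh7 (limma adjusted p = 0.0535). NFE2L1 (NRF1) differed by -0.13 and -0.22, BACH2 by -0.21 and -0.18, and NFE2, the hematopoietic member, by -0.12 and 0.05. None of these passed. The count of calls in Huh7 lay between 0 and 4 over the alternative settings. NRL, a large MAF protein of photoreceptors, differed by -0.12 in Hep-3B and 0.10 in Huh7, and neither passed (limma adjusted p = 0.756 and 0.72).

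AP-1 factors, leucine zipper proteins that can bind sites resembling those of MAF, had a median difference of -0.38 in Hep-3B and -0.14 in Huh7. Of 12 genes 1 fell in Hep-3B and 2 fell in Huh7, and 0 rose in either line, where lower calls made up 0.238% and 6.2% of all genes. At an unadjusted p under 0.05 there were 8 in Hep-3B and 4 in Huh7. FOS, an immediate early gene, fell in Hep-3B, at 4.23 and 3.38 with shKLHL23 against 5.11 and 4.97 with shLuc (-1.24, SE 0.23, limma adjusted p = 0.0445). In Huh7 the difference of FOS was -0.17 (limma adjusted p = 0.738), and the difference between the lines did not pass (limma adjusted p = 0.183). JDP2, a repressor of AP-1, fell in Huh7, at 4.35 and 5.21 with shKLHL23 against 6.48 and 6.51 with shLuc (-1.72, SE 0.26, limma adjusted p = 0.0065). ATF3, a stress-induced factor, fell in Huh7 by 2.25 (SE 0.54, limma adjusted p = 0.0357). In Hep-3B its difference was -2.09 (limma adjusted p = 0.0999), with knockdown arrays of 8.09 and 5.84 that differed as those of MAFF did. The Hep-3B count of AP-1 calls was 0 when any array other than Hep-3B-shKLHL23 replicate 1 was left out, and 3 without that array. Without either Huh7-shLuc array 0 AP-1 factors were called in Huh7.

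Among 32 measured target genes of NRF2 and its small MAF partners, 11 rose and 1 fell in Huh7, with a median difference of 0.22 and 19 at an unadjusted p under 0.05. In Hep-3B 1 rose and 0 fell, with a median of 0.09 and 13 at an unadjusted p under 0.05. Of all genes, 4.46% were called higher and 6.2% lower in Huh7, and 0.733% and 0.238% in Hep-3B. AKR1B10, an aldo-keto reductase, rose in Huh7, at 6.17 and 6.98 with shKLHL23 against 5.42 and 5.24 with shLuc (1.24, SE 0.23, limma adjusted p = 0.0131). UGDH, which makes glucuronic acid for conjugation, rose by 0.93 (SE 0.11, limma adjusted p = 0.0027). The glutathione peroxidase GPX2 rose by 0.75 (limma adjusted p = 0.0052) and HMOX1, the heme-degrading enzyme that BACH1 represses, by 0.73 (limma adjusted p = 0.0159). TXNRD1, thioredoxin reductase, was the gene that fell, at 9.97 and 10.13 with shKLHL23 against 10.71 and 10.70 with shLuc (-0.66, limma adjusted p = 0.0101).

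In Hep-3B the carboxylesterase CES1 rose by 1.04 (limma adjusted p = 0.0269), and HMOX1 differed by 0.43 (limma adjusted p = 0.174). Of these 32 genes, only NMRAL2P passed the test of the difference between the lines (limma adjusted p = 0.048), at 0.49 in Huh7 and -0.32 in Hep-3B. TXNRD1, NMRAL2P and SLC7A11 were named after their values were seen. SLC7A11, the cystine transporter, differed by -1.54 in Hep-3B (limma adjusted p = 0.182) and -1.81 in Huh7 (limma adjusted p = 0.0623), neither of which passed. The Hep-3B count lay between 0 and 5 over the alternative settings. The count of calls in Huh7 dropped to 1 without either Huh7-shLuc array and to 7 without Huh7-shKLHL23 replicate 1 or with Huh7 fitted alone.

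Proteasome genes and related degradation genes, listed as targets of NRF1 with small MAF partners, had medians of 0.12 in Hep-3B and 0.11 in Huh7. Of all genes, 4.46% were called higher and 6.2% lower in Huh7, and 0.733% and 0.238% in Hep-3B. Of 30 genes 3 rose and 1 fell in Huh7, and 0 were called in Hep-3B (7 at an unadjusted p under 0.05 by limma, VCP at 0.35 and POMP at 0.33 furthest from 0). The subunit PSMD3 rose by 0.62, the segregase VCP by 0.61 and the assembly factor POMP by 0.57, and HERPUD1, which acts in endoplasmic reticulum degradation, fell by 0.70. The Huh7 calls of this list were lost without either Huh7-shLuc array.

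**Figure D4:**
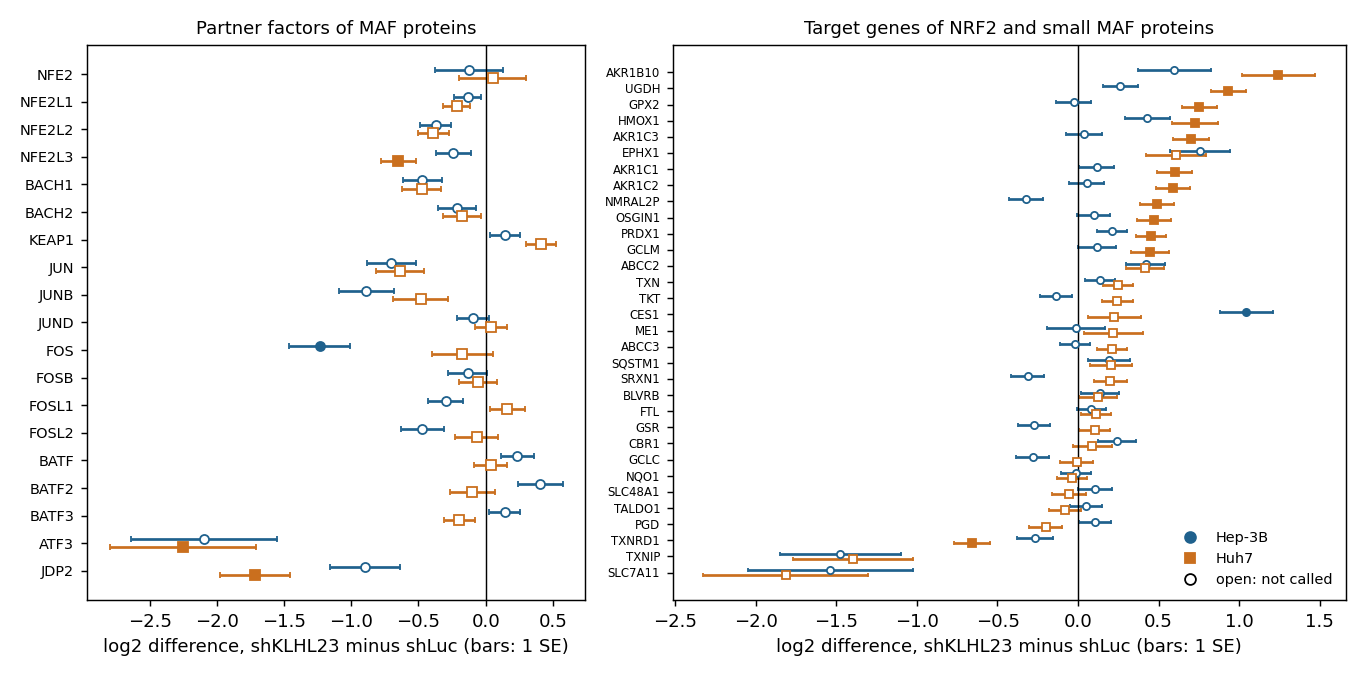
Log2 difference of shKLHL23 minus shLuc (x axis, bars of 1 SE, n = 2 per group) for CNC, BACH and AP-1 genes with KEAP1 (left) and for 32 target genes of NRF2 and small MAF proteins (right), with circles for Hep-3B, squares for Huh7 and filled symbols for calls. In Huh7, 11 of the 32 target genes rose and TXNRD1 fell, while CES1 was the gene called in Hep-3B.

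Genes reported elsewhere as targets of large MAF proteins did not move with MAF as a list. Of 21 genes 0 were called in Hep-3B (0 at an unadjusted p under 0.05 by limma), with a median difference of 0.04. CD163 and C1QB, both expressed by macrophages, were furthest from 0, at 0.31 and 0.30. In Huh7 1 rose and 2 fell, with a median of -0.04. Of all genes, 4.46% were called higher and 6.2% lower in Huh7, and 0.733% and 0.238% in Hep-3B. The eye lens gene CRYAA rose by 0.53 (limma adjusted p = 0.0435), the mTOR inhibitor DEPTOR fell by 0.997 (limma adjusted p = 0.0077) and the Wnt inhibitor DKK1 fell by 0.66 (limma adjusted p = 0.008). Both DEPTOR and DKK1 are known as genes that MAF raises in myeloma. In Hep-3B their differences were -0.09 and 0.13. CRYBA1, IL4, IL10, GCG and SPIC lay below the lower quartile on all 8 arrays. Without either Huh7-shLuc array 0 genes of the list were called in Huh7.

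Neighbouring genes on chromosome 16 and regulators of MAF were also examined. Of 5 measured neighbours 0 were called in either line by limma, and 0 had an unadjusted p under 0.05. Those furthest from 0 were DYNLRB2 (0.09) and CDYL2 (0.05) in Hep-3B, and VAT1L (-0.18) and CDYL2 (-0.14) in Huh7. DYNLRB2 lay below the lower quartile on all 8 arrays, and 0 of the 5 lay above the upper quartile on all 8. The neighbours MAFTRR, LINC01229 and LINC01228 were not measured. Of 11 measured kinases, ubiquitin enzymes and other regulators of MAF, 0 were called in Hep-3B (1 at an unadjusted p under 0.05), with MAP2K1 at -0.37 and MAP2K2 at 0.24 furthest from 0. Among all genes 0.733% were called higher and 0.238% lower in Hep-3B, and 4.46% and 6.2% in Huh7. In Huh7 2 rose, the deubiquitinase USP5 by 0.45 (limma adjusted p = 0.0326) and GSK3B, a kinase that phosphorylates MAF, by 0.41 (limma adjusted p = 0.0314). Both calls were lost without any one of Huh7-shKLHL23 replicate 1, the Huh7-shLuc arrays and the Hep-3B-shLuc arrays.

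The genes whose levels ran most like MAF on 209348_s_at over the 8 arrays were GOLM1, C2CD2, TSC1, ZC3HAV1 and CKS2, with Pearson correlations of 0.994, 0.989, 0.979, 0.973 and 0.973 among 19775 genes. These 8 points share the 4 groups, so the correlations mainly describe the group differences. GOLM1, a Golgi membrane protein, was at 5.34 and 5.99 in Hep-3B-shKLHL23, against 4.07 and 4.28 in Hep-3B-shLuc. In Huh7 GOLM1 was at 6.21 and 5.64 with shKLHL23, against 4.65 and 4.64 with shLuc. As for MAF, replicate 3 was the higher knockdown array in Hep-3B and replicate 1 in Huh7. GOLM1 was picked by its correlation with MAF on these same arrays, so this shared order is no separate likeness.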

How the data were processed

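The authors deposited log2 expression values and, per the submitters' processing notes, made them with RMA in Expression Console 1.2 of Affymetrix. Other settings of their processing are not given in the sources used here. The number of arrays limits the precision. Of 54675 probe sets, 41097 are paired with 1 gene symbol, 1801 with several and 11777 with none. Symbols of 41043 were looked up by gene identifier in the RefSeq table of GRCh38.p14, which changed 0.

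The 54613 probe sets other than 62 AFFX controls were fitted with limma 3.58.1 in R 4.3.3. The model held a mean per group over all 8 arrays, with 4 residual and 5.17 prior degrees of freedom. Benjamini-Hochberg adjustment ran over all 54613, and a probe set was called at an adjusted p under 0.05. SEs are moderated. Genes outside the family were represented by their brightest single-symbol probe set. The procedure was also run on simulated data, and no result given here rests on that run. Named genes are all members, the large MAF and partner genes, and, per list and line, up to 4 called genes with the largest absolute difference or, where none was called, the 2 furthest from 0; exceptions are stated. The 5 genes most like MAF had the highest Pearson correlation. The mean of both knockdown differences was a contrast chosen after seeing the data. Alternatives were gene-level features, median centring, quantile normalization, leaving out dim probe sets, an intensity trend, array weights, each line alone, a replicate block and leaving out each array. MAFK had no named probe set here and was not analysed here. Members and lists were chosen with earlier results of these data known.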

Additional observations from a re-analysis of the deposited data

Results flagged for a closer look

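The knockdown differences of the MAF probe set 1566324_a_at had opposite signs in the 2 lines. In Huh7 both knockdown arrays lay above both control arrays (2.40 and 2.48 with shKLHL23 against 2.24 and 2.29 with shLuc). That pattern held for 25.5% of all probe sets in Huh7. In Hep-3B both lay below (2.14 and 2.32 against 2.36 and 2.34), with a gap of 0.02 between the nearest arrays. There 24.6% of all probe sets had both knockdown arrays below. The Huh7 minus Hep-3B difference was 0.296, and it was not tested. All 8 values lay below the lower quartile of their arrays.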

How the results depend on the processing

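No alternative setting turned the sign of a difference of MAFF or MAFG between knockdown and control in either line, or of the 3 responding MAF probe sets. The knockdown and control arrays of these probe sets did not overlap, so leaving out 1 array could not turn that sign. The fits with a trend, weights, a block or each line alone keep the same estimate, and MAF was chosen for its rise. The unchanged sign is therefore no separate support. On MAF 209348_s_at, leaving out 1 array gave 1.79 to 2.37 in Hep-3B and 1.42 to 2.15 in Huh7. Counts of called probe sets depended on the setting. In Hep-3B the count of 627 became 137 over genes, 1143 without dim probe sets, 1963 with an intensity trend, 1715 with array weights and 0 with each line fitted alone (limma; 9361 at an unadjusted p under 0.05). In Huh7 the count of 4641 became 2666 over genes and 2139 with the line fitted alone. For the difference between lines, 510 became 249 over genes, 855 without dim probe sets and 1271 with an intensity trend. Between control lines 14086 became 6457 over genes, where fewer features were tested. Leaving out 1 array gave 0 to 1991 calls in Hep-3B, 549 to 5394 in Huh7, 2 to 1075 for the difference between lines and 9463 to 15565 between control lines. The 0 came without Hep-3B-shLuc replicate 1 (5701 at an unadjusted p under 0.05). Leaving out 1 array also turned the sign of values that were not called or not tested. The Huh7 knockdown difference of MAF 209347_s_at, 0.39 with all arrays, ran from -0.002 to 0.78. On MAF 1566323_at the Huh7 knockdown difference ran from -0.15 to 0.04. The mean of both knockdown differences ran from -0.11 to 0.28 on MAF 209347_s_at and from -0.016 to 0.073 on MAF 1566324_a_at. The difference between lines ran from -0.66 to 0.07 on MAF 209348_s_at, from -0.08 to 0.40 on MAF 206363_at, from -0.34 to 0.22 on MAF 229327_s_at and from -0.09 to 0.09 on MAF 1566323_at, which were not tested. It ran from -0.31 to 0.71 and from -0.11 to 0.51 on MAFF 36711_at and 205193_at, and from -0.22 to 0.12 and from -0.15 to 0.12 on MAFG 204970_s_at and 224466_s_at. The difference between control lines ran from -0.153 to 0.0383 on MAFG 224466_s_at and from -0.0552 to 0.132 on MAF 1566323_at. The cause of these shifts was not tested.

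Same-numbered arrays did not deviate together, with correlations of -0.035 in Hep-3B and 0.0535 in Huh7, so the numbers were not taken to pair the samples. With a replicate block the counts were 1127 in Hep-3B, 4227 in Huh7, 539 for the difference between lines and 13704 between control lines. With the block MAFF passed in both lines on 36711_at (limma adjusted p = 0.0279 in Hep-3B and 0.0225 in Huh7) and on 205193_at (limma adjusted p = 0.0369 and 0.0465).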
